A study of Drosophila melanogaster with 12 samples.

Results

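The piRNA landscape of wild type Drosophila melanogaster testes was described from the 3 wild type small RNA libraries, which are 3 of 6 small RNA libraries and of 12 libraries in the series. They were chosen by their wild type label and by no measured value. Each library was made from 300 pairs of testes of wild type flies aged 0 to 2 days, and the strain was not given in the sources used here. The other small RNA libraries came from testes with RNAi against klp10A and were not used here. For every library the deposited tables hold a sense and an antisense piRNA value for 123 repeat sequences. By general knowledge of the families, 60 of these are LTR retrotransposons, 38 are LINE retrotransposons and 19 are DNA transposons. The other 6 include the Stellate, Su(Ste) and mst40 repeats. Transcript levels of all 123 were taken from 3 wild type RNA libraries of the same age and dissection size.

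piRNAs are small RNAs that guide PIWI-clade Argonaute proteins to matching RNA, and in the fly gonad they silence transposable elements (TEs). Antisense piRNAs pair with TE transcripts, and cleavage of those transcripts can yield sense piRNAs, which in turn direct cleavage of antisense precursors in the ping-pong cycle. In the testis the best known target outside TEs is Stellate, an X-linked repeated gene whose RNA is silenced by piRNAs from the Y-linked Suppressor of Stellate repeats, Su(Ste). Here sense and antisense are relative to the reference sequence of each repeat as the authors used it.

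The summed antisense value over the 123 sequences was 12838774, 16473887 and 14150721 normalized counts in replicates 1, 2 and 3, and the summed sense value was 6598360, 8470979 and 7679245. A normalized count is a read count that the authors scaled by miRNA hairpin reads. From the steps between low values, 1 read was worth an estimated 39.3, 43 and 37.1 normalized counts, which puts the piRNA reads on these sequences at about 494584, 580113 and 588409. The same estimate puts a floor of 3 reads at 117.9, 129 and 111.3 normalized counts, and in each library 5 to 9 sequences lay at or under it on a given strand. This floor covers counting error only. The libraries ranked the sequences alike, with a Pearson correlation of 0.996 between each pair of libraries across sequences on the log2 scale. Strand balance per sequence differed between libraries. Among the 107 sequences with a mean of at least 1000 normalized counts, replicate 1 had the lowest sense share of the 3 libraries at 62. Replicate 2 had the highest at 57. The median sense share of these sequences was 28.2%, 34.2% and 31.7% in replicates 1, 2 and 3. In the pool of all 123 sequences the sense share was 33.9%, 34.0% and 35.2%, highest in replicate 3.

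The tissue label was checked in the wild type RNA libraries. Transcripts of late male germ cells were abundant, with 9533, 5091 and 9503 counts for the sperm gene Mst87F. The listed germline genes bam, vas, nos, aly, can and sa were far lower, from bam (24, 16 and 26 counts) to can (285, 200 and 349). Of the listed cyst and hub genes, tj had 16, 18 and 19 counts and Fas3 had 705, 619 and 872. The ovarian genes osk, Vm26Aa and Cp18 had at most 12 counts in a library. Counts of tj lay near those of osk (12, 5 and 11), so low counts alone do not mark a tissue as absent. The accessory gland gene Acp36DE had 41143, 12635 and 33567 counts, and both other accessory gland genes of the list had over 1800 counts in every library. The part of that tissue in the TE transcript levels was not tested. Counts of the 27 listed piRNA pathway genes were lowest at zuc, which encodes the nuclease Zucchini, with 6, 4 and 4. They were highest at tud, which encodes a Tudor domain scaffold, with 2228, 1850 and 2731. In every library zuc had fewer counts than the ovarian gene osk, so it is not called detected. The Argonautes piwi (60, 54 and 71 counts), aub (109, 88 and 191) and AGO3 (333, 163 and 321) lay between zuc and tud. In whole testes, fewer cells of a type and less RNA per cell cannot be told apart.

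A few sequences held most of the piRNA found on the 123 sequences. Here and below, all piRNA, the pool and a library total mean sums over these sequences. Reads mapping elsewhere are not included. Values per sequence are sums over the whole repeat and not per length, since repeat lengths were not used here. The first 10 of the 123 sequences held 61.7% ± 3.08 (SD, n = 3) of the summed normalized counts, with 58.2%, 63.9% and 63.1% in replicates 1 to 3. The 61 lowest sequences together held 3.14% ± 0.24. It took 8, 6 and 6 sequences to reach 50% of this sum in replicates 1 to 3 and 43, 40 and 40 to reach 90%. The inverse Simpson number, the number of equally abundant sequences that would give the same concentration, was 17.7 ± 2.07. Each strand alone was more concentrated, at 11.7 ± 1.84 for antisense and 10.9 ± 0.70 for sense.

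Su(Ste) led the pool. It had 2744903, 4364599 and 3372762 antisense normalized counts against 148072, 163178 and 160867 sense. All antisense values exceeded all sense values. Su(Ste) held 16.4% ± 1.64 of the piRNA summed over the 123 sequences and 23.9% ± 2.56 of the antisense piRNA on them. Stellate had 894711, 1246105 and 923395 antisense against 52560, 64048 and 61263 sense normalized counts. The heterochromatic copy stellateHet had 671732, 932223 and 696994 antisense against 46402, 56334 and 53913 sense. Replicate 2 was the highest library for the antisense value of all 3 repeats. Stellate and Su(Ste) are homologous, so the way reads were divided among these 3 entries is uncertain. Together with mst40 they held 36.9% ± 3.23 of all antisense piRNA and 8.87% ± 0.65 of all sense piRNA. Without these 4 repeats the first 10 of the remaining sequences held 57.7% ± 2.27.

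**Figure D1:**
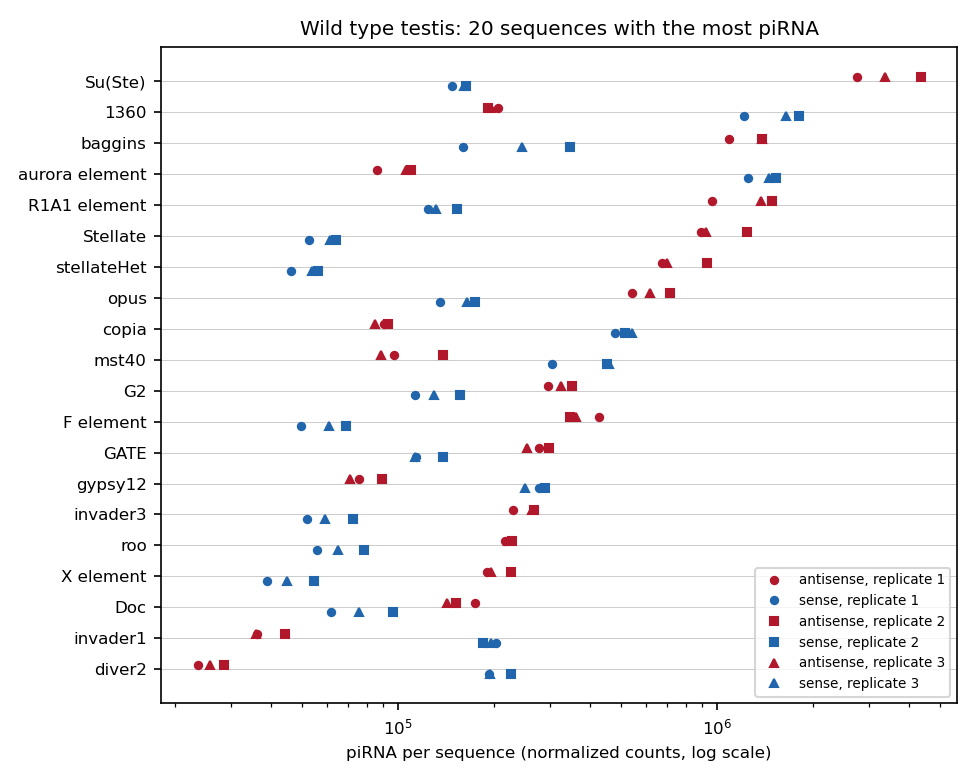
piRNA at the 20 sequences with the highest mean, in normalized counts on a log scale, with 1 symbol per library and strand (red antisense, blue sense). Su(Ste) reached 4364599 antisense normalized counts in replicate 2, and at 1360, aurora element, copia and mst40 the blue sense values lie to the right of the red antisense values.

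The next sequences by total were TEs of several classes. The DNA transposon 1360 (FBgn0005673), copies of which lie within Su(Ste) repeats, had 205706, 191485 and 195444 antisense against 1220293, 1814844 and 1644957 sense normalized counts. The LINE baggins had 1089399, 1383628 and 1391087 antisense against 160700, 347345 and 245917 sense. The LTR retrotransposon aurora element (FBgn0010103) had 86016, 109838 and 106329 antisense against 1251919, 1532869 and 1454646 sense. R1A1 element (FBgn0003908), a LINE that inserts into ribosomal RNA genes, had 964987, 1486343 and 1373353 antisense against 124488, 152939 and 132236 sense. Thus 1360 and aurora element were high on the sense strand, and baggins and R1A1 element on the antisense strand, with no overlap between strands at any of the 4.

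These 4 sequences held 7.94% ± 0.55, 6.96% ± 0.53, 6.87% ± 0.28 and 6.36% ± 0.67 of the pool, in that order. Each neighbouring pair in this order overlapped in its library values, though within libraries 1360 lay above baggins and aurora element above R1A1 element in 3 of 3, and baggins above aurora element in 2 of 3. The lowest value of 1360, 7.34%, lay above the highest of aurora element, 7.15%, and of R1A1 element, 6.90%. Su(Ste) lay above 1360 without overlap, at a lowest value of 14.9% against a highest of 8.43%. Stellate, at 4.88% ± 0.37, lay below R1A1 element and above stellateHet, at 3.70% ± 0.26, without overlap. The LTR retrotransposon opus followed with 3.55% ± 0.05 and overlapped stellateHet. The retrotransposon copia, at 2.75% ± 0.27, and mst40, at 2.32% ± 0.23, closed the first 10 and overlapped each other, with copia higher in 3 of 3 libraries.

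**Figure D2:**
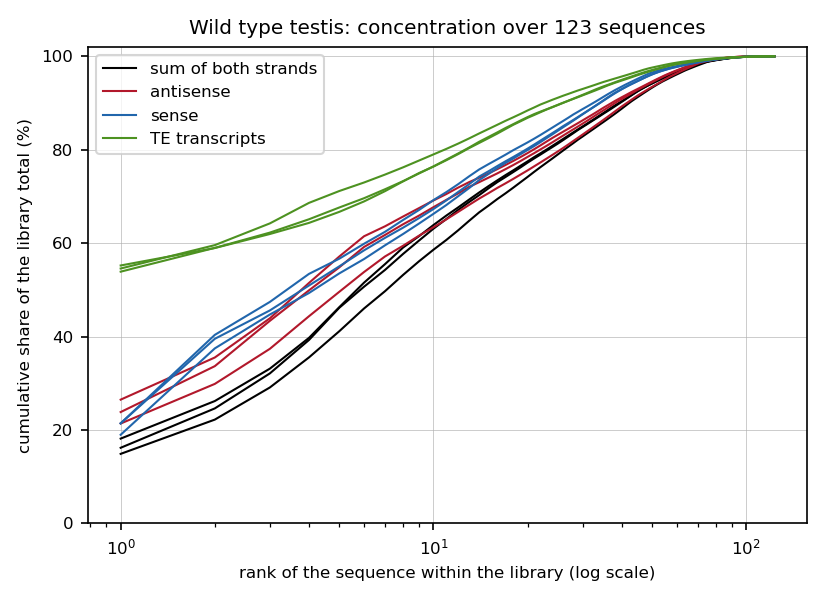
Cumulative share (%) of the sum over the 123 sequences in each library, against the rank of the sequence within that library (log scale). There is 1 line per library for both strands together, antisense, sense, and TE transcript counts. The transcript lines start highest, since copia alone held 54.6% ± 0.66 of the transcript counts, while the first sequence held 16.4% ± 1.64 of both strands together.

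Antisense piRNA exceeded sense piRNA in the pool of every library. The sense share, sense divided by the sum of both strands, was 33.9%, 34.0% and 35.2% in replicates 1 to 3, with a mean of 34.4% ± 0.71. An exact two-sided sign-flip permutation test gave p = 0.25, the smallest that 3 libraries allow. Without Su(Ste) the sense share was 40.3% ± 1.12, and without the 4 Stellate, Su(Ste) and mst40 repeats it was 43.1% ± 1.20. On the other strand, 1360 held 20.4% ± 1.69 of the sense piRNA and aurora element held 18.7% ± 0.50. The sense share without these sense-rich sequences was not computed.

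Sequence by sequence, the strand balance ranged far more widely. The sense share ran from 4.25% at gypsy5 to 99.2% at R2 element, with quartiles of 15.6% and 50.1% and a median of 33.2%. The limma fit of the within-library antisense to sense ratio called 89 of 123 sequences (72.4%). Of all sequences, 69 (56.1%) had more antisense piRNA, 20 (16.3%) had more sense piRNA and 34 were not called. A call needed an adjusted p-value under 0.1 and a ratio over 1.5-fold. The direction was the same in all 3 libraries at 101 sequences, of which 77 were antisense and 24 sense. The 3 values of the strands did not overlap at 73 sequences (59.3%) with antisense above sense and at 21 (17.1%) with sense above antisense. At 37 sequences the sense share lay between 35% and 65%, and these held 8.37% of the pool. The 19 sequences with a sense share under 10% held 35.8% of it, and the 3 with over 90% held 6.96%.

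The 20 sense-called sequences held 64.0% ± 1.23 of all sense piRNA and 25.2% ± 0.80 of the whole pool. They consisted of 12 LTR retrotransposons, 5 LINEs, 2 DNA transposons and mst40. The 69 antisense-called sequences held 90.9% ± 0.93 of all antisense piRNA. Across the 123 sequences the means of both strands had a Spearman correlation of 0.82 and a Pearson correlation of 0.83 on the log2 scale. This is a description, since sequences share libraries and differ in length and copy number.

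**Figure D3:**
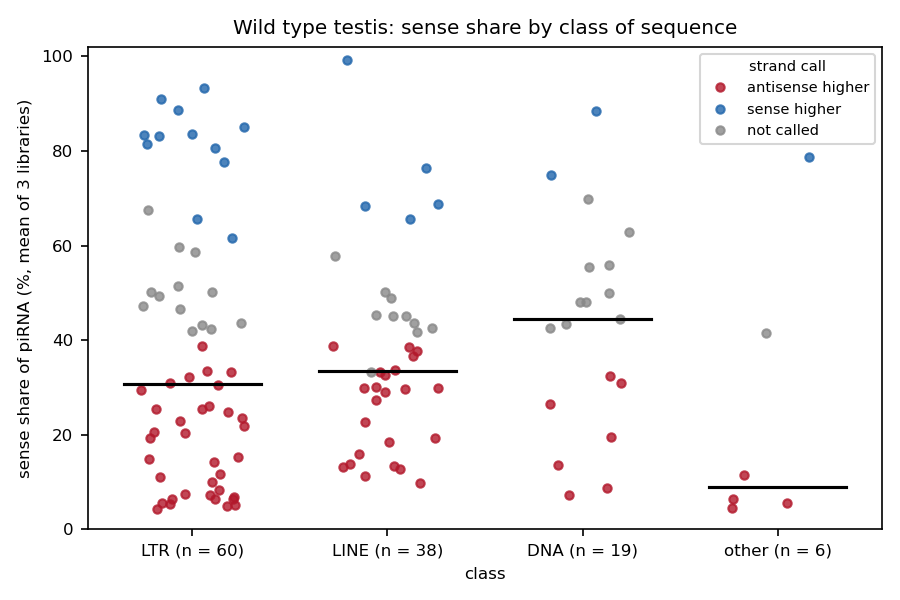
Sense share of piRNA (%, mean of 3 libraries) at each of the 123 sequences, by class, coloured by strand call, with a black line at the class median. Called sequences of both directions occur in each class, and the medians lie at 30.7% for LTR, 33.4% for LINE, 44.4% for DNA and 8.93% for other repeats.

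Among the most sense-biased sequences was R2 element, another LINE of the ribosomal RNA genes, with 13896, 21938 and 12741 sense against 157, 129 and 74 antisense normalized counts. Its antisense values correspond to an estimated 2 to 4 reads, at or near the floor, so the size of its ratio is poorly determined. The aurora element had a sense share of 93.6%, 93.3% and 93.2%, which is 14.1-fold more sense than antisense (log2 antisense over sense -3.81, SE 0.10, adjusted p = 9.8e-05 in limma). The LTR retrotransposon diver2 had a sense share of 89.1%, 88.8% and 88.3%, and 1360 one of 85.6%, 90.5% and 89.4%. By its ratio (log2 -3.39), frogger of the copia group lay between aurora element and diver2 among the 5 most sense-biased. It had only 140, 164 and 208 antisense and 2120, 1694 and 1562 sense normalized counts. Its share of 91.1% ± 2.78 thus rests on few reads.

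The most antisense-biased sequences were gypsy5, Su(Ste), gypsy, Stalker2 and Stalker4. Of these, gypsy5 had 8077, 6692 and 6121 antisense against 290, 345 and 280 sense normalized counts, a 22.7-fold ratio (log2 4.50, SE 0.15, adjusted p = 9.8e-05 in limma). Its sense values rest on few reads, at an estimated 39.3, 43 and 37.1 normalized counts per read. Without replicate 1 the log2 ratio was 4.36 at gypsy5 and 4.57 at Su(Ste), so their order is not settled. The antisense to sense ratio was 21.8-fold at Su(Ste), 19.6-fold at gypsy, 18.6-fold at Stalker2 and 18.1-fold at Stalker4. Stalker, Stalker2 and Stalker4 are related in sequence and may share reads.

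Strand calls are next given by family, first within the LTR class. The errantiviruses and the mdg1 group were mostly antisense, and the copia group was mostly sense. Of 14 errantiviruses, gypsy-related LTR elements most of which can encode an envelope protein, 13 had more antisense piRNA and none had more sense piRNA, against 56.1% and 16.3% of all sequences. With each strand scaled to its own library total, which lowers every log2 ratio by about 0.93, 10 of the 14 were called antisense and 1 sense. Under that scaling 44 of all 123 sequences were called antisense and 38 sense. The median sense share of the errantiviruses was 20.4% against 33.2% over all sequences. The exception that was not called was Burdock, at 59.7% ± 2.36. All 7 members of the mdg1 group had more antisense piRNA, against 56.1% of all sequences, and 6 of 7 did under that scaling. Stalker, Stalker2 and Stalker4, which may share reads, are separate members in this count. The 7 members had a median sense share of 6.40%, from 5.12% at Stalker2 to 33.5% at mdg1 itself. The element blood had 75590, 101692 and 105304 antisense against 5738, 7394 and 5985 sense normalized counts, and 412 had 61452, 62652 and 55488 antisense against 7589, 7690 and 7063 sense.

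Of the 4 copia group members 3 had more sense piRNA, against 16.3% of all sequences. Dm88 was not called, at a sense share of 50.1% ± 1.42. With each strand scaled to its own total, which called 38 of all 123 sequences sense, all 4 were called sense. The most expressed of them, copia (FBgn0000349), had 478714, 514908 and 542011 sense against 90277, 93430 and 84862 antisense normalized counts, a 5.71-fold sense excess. The element 1731 had 124994, 139965 and 128282 sense against 30626, 30359 and 28458 antisense, a 4.39-fold excess. No strand values overlapped at either element. Of 7 Bel-Pao elements, aurora element, diver2 and 3S18 had more sense piRNA, roo had more antisense piRNA, and diver, rooA and Max element were not called. Thus 42.9% were called sense and 14.3% antisense, against 16.3% and 56.1% of all sequences. Under the same scaling 5 of the 7 were called sense, against 38 of all 123 sequences. Here roo, an abundant element of the fly genome, had 216855, 228014 and 222112 antisense against 55891, 78242 and 65107 sense normalized counts. The Bel-Pao group held 24.4% ± 0.56 of all sense piRNA and 3.29% ± 0.29 of all antisense piRNA, most of the sense part at aurora element (18.7% ± 0.50).

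Among the LINEs, 12 of 19 jockey clade elements (63.2%) had more antisense piRNA, 3 (15.8%) had more sense piRNA and 4 were not called. These shares are near the 56.1% and 16.3% of all sequences. With each strand scaled to its own total the clade split into 3 antisense and 5 sense calls, with 11 not called. Over all 123 sequences that scaling gave 44 antisense and 38 sense calls. F element had 427246, 346032 and 362786 antisense against 49634, 68741 and 61030 sense normalized counts. The 3 with more sense piRNA were jockey, G5 and G5A. The element jockey had 8653, 13464 and 9243 sense against 3934, 5857 and 4679 antisense, a 2.15-fold excess without overlap between strands. Of the 7 Tc1-mariner DNA transposons 6 had more antisense piRNA, against 56.1% of all sequences. Under that scaling 3 of the 7 were called antisense, against 44 of all 123 sequences. Nothing particular to these transposons can be read from the scaled count. Among the 7, pogo had 47465, 46011 and 47872 antisense against 4737, 4685 and 3966 sense. The class of DNA transposons was nevertheless 79.5% ± 2.76 sense in its pooled value, in which 1360 held 7.94% of the pool out of 9.24% for the class.

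**Figure D4:**
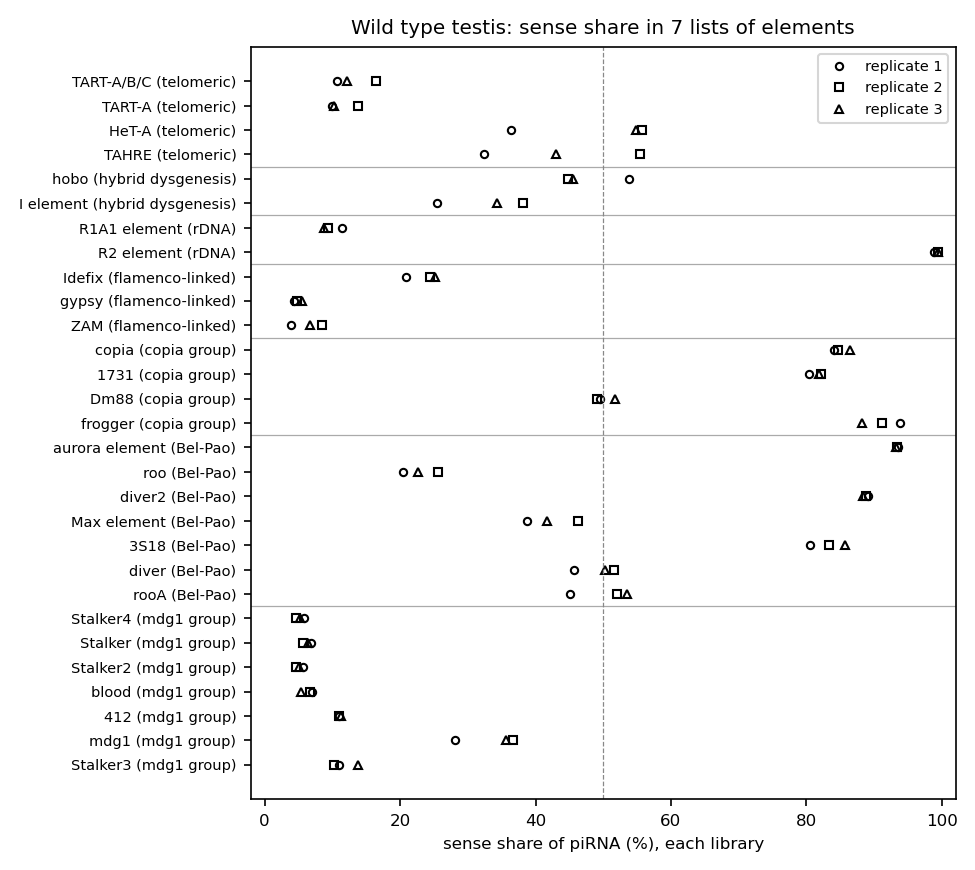
Sense share of piRNA (%) in each wild type library at the members of 7 lists of elements, with 1 symbol per library and a dashed line at 50%. The mdg1 and flamenco-linked elements lie left of the line in every library. HeT-A, TAHRE, hobo, Dm88, diver and rooA have libraries on both sides of it.

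Of the 4 entries for elements that maintain fly telomeres, 2 (50%) had more antisense piRNA and none had more sense piRNA. Over all sequences the shares were 56.1% and 16.3%, so nothing particular to these elements can be read from the count. The entry for TART-A/B/C had 88157, 79250 and 82151 antisense against 10474, 15556 and 11460 sense normalized counts, a 6.75-fold ratio (adjusted p = 0.00045 in limma). The TART-A entry, which can share reads with it, had 55186, 51124 and 53958 against 6063, 8165 and 6147, a 7.94-fold ratio. HeT-A had 7001, 6565 and 5948 antisense against 4008, 8257 and 7202 sense normalized counts, and replicate 1 was the library with more antisense than sense. At TAHRE the antisense values were 2179, 1822 and 2245 and the sense values 1042, 2260 and 1700. Neither HeT-A (log2 0.07, SE 0.29, adjusted p = 0.86) nor TAHRE (0.38, SE 0.30, adjusted p = 0.31) was called, and without replicate 2 TAHRE was called, at a log2 ratio of 0.73 and an adjusted p of 0.0997. With each strand scaled to its own total HeT-A was called sense.

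Of the ribosomal DNA elements, R1A1 was antisense by 9.21-fold and R2 almost purely sense, as given above. The I element, which causes I-R hybrid dysgenesis, had 25055, 21349 and 15308 antisense against 8581, 13192 and 7972 sense normalized counts, a 2.09-fold ratio (adjusted p = 0.012 in limma). At hobo, the DNA transposon of H-E dysgenesis, the antisense values of 13822, 21801 and 18011 overlapped the sense values of 16108, 17658 and 15048, and no call was made (adjusted p = 0.56). With each strand scaled to its own total the I element was not called and hobo was called sense. The elements gypsy, ZAM and Idefix are controlled in the ovarian soma by the flamenco piRNA cluster. In testis gypsy had 38820, 48301 and 41400 antisense against 1746, 2439 and 2418 sense normalized counts. For ZAM the values were 12772, 13354 and 10884 against 511, 1230 and 780, and for Idefix 144523, 138335 and 123204 against 38004, 44563 and 41309. The ratios were 19.6-fold, 15.6-fold and 3.28-fold. All 3 were called antisense, as were 56.1% of all sequences, so nothing particular to these elements can be read from the count.

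piRNA was next set against the TE transcript level. TE sequences took 10.6%, 13.0% and 13.1% of 23316483, 20044004 and 19929803 counts in the wild type RNA libraries. Levels are given in CPM, counts divided by the TMM-scaled library size, over the whole element. By far the most transcribed was copia, at 58658, 84869 and 58358 CPM, or 54.6% ± 0.66 of TE counts. It was followed by 297 (5542, 7793 and 3948 CPM), R1A1 element (3104, 6828 and 2514 CPM), Quasimodo (2165, 7238 and 2227 CPM) and jockey (3566, 2840 and 3173 CPM). On this scale RNA replicate 2 was the highest library at the first 4 of these. The TMM factors were 0.97, 0.83 and 1.24 in replicates 1 to 3. As a share of TE counts, copia was highest in replicate 3, at 53.9%, 54.6% and 55.2%. Genes named by a CR number took 45.7%, 51.6% and 30.6% of all counts. Without RNA replicate 2 Quasimodo ranked 7, at 2196 CPM. Of the first 10 sequences by piRNA 3 were also among the first 10 by transcripts, and of the first 20 by piRNA 4 were among the first 20. The overlap that unrelated orders would give was not computed, so these counts are a description.

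Sequences with more transcripts tended to have more piRNA. Across the 123 sequences, the Spearman correlation of mean transcript level with piRNA was 0.72 for both strands together, 0.68 for antisense and 0.71 for sense. The Pearson correlation on the log2 scale was 0.72, 0.67 and 0.72. The sense share itself had a Spearman correlation of -0.08 with transcript level. Within classes the value for both strands together was 0.71 over 60 LTR, 0.66 over 38 LINE and 0.76 over 19 DNA elements. These are descriptions with no test, as the sequences share libraries, and piRNA and transcript values both grow with the length and copy number of the element.

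**Figure D5:**
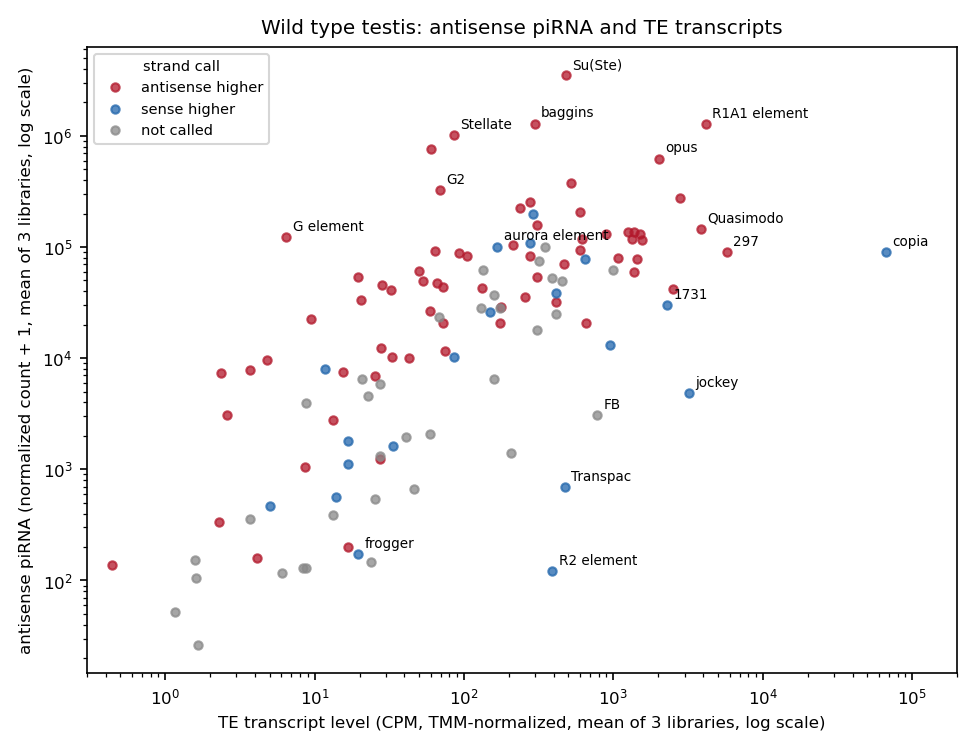
Mean antisense piRNA (normalized count + 1) against mean TE transcript level (TMM-normalized CPM), both on log scales, 1 point per sequence coloured by strand call. The G element and Stellate lie above the diagonal cloud, with log2 ratios of 14.19 and 13.53, and R2 element, Transpac, jockey and copia lie below it, at -1.69, 0.54, 0.60 and 0.41.

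The ratio of antisense piRNA to transcript level was formed without element length, since both values are sums over an element. The piRNA was assigned to reference sequences and the transcripts to genomic copies, and whether both cover the same stretch was not tested. Over the 120 sequences with enough counts, the log2 of antisense normalized counts per CPM had a median of 7.28 and quartiles of 5.73 and 8.92. Its zero has no meaning, and only differences between sequences can be read. The highest ratio was at the G element, a jockey clade LINE, with 107314, 132761 and 128922 antisense normalized counts and 5.7, 9.3 and 4.5 CPM of transcript, for a log2 ratio of 14.19. Next came stellateHet (13.63), Stellate (13.53), Su(Ste) (12.83) and G2 (12.19). Transcripts were at 62.6, 116 and 79.9 CPM for Stellate, at 395, 596 and 447 CPM for Su(Ste) and at 55.6, 97.6 and 54.6 CPM for G2. At each of these 5, the lowest ratio over all pairs of a small RNA and an RNA library was at least 11.56.

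The lowest ratio was at R2 element, at -1.69, with transcripts at 370, 374 and 426 CPM. Then came copia (0.41), Transpac (0.54) and jockey (0.60). Over all pairs of a small RNA and an RNA library, copia alone ran from -9.7e-05 to 0.68, so the order of copia, Transpac and jockey is not settled. The LTR retrotransposon Transpac had 590, 1077 and 408 antisense normalized counts for 581, 351 and 494 CPM of transcript. The foldback element FB had a ratio of 1.97, but its transcripts were at 175, 2024 and 151 CPM, and without RNA replicate 2 the ratio was 4.23 and its rank moved from 116 to 105 of 120. The ratios of the other 4 moved by less than 1.5-fold without any 1 RNA library.

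Sense piRNA per transcript gave another order. Its log2 was highest at aurora element (13.04), the G element (12.98) and 1360 (12.40), and it was 2.93 at copia and 1.71 at jockey. In the copia group the median log2 ratio was 3.41 for antisense and 6.17 for sense, against 7.27 and 6.24 over all sequences. In the mdg1 group it was 6.76 for antisense and 3.07 for sense, and in the errantiviruses 6.86 and 4.91. The jockey clade, at 8.80 and 7.98, lay above the medians of all sequences on both strands.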

How the data were processed

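Small RNA and rRNA-depleted RNA of wild type testes were analysed (3 libraries each). Small RNA reads were adapter-trimmed by the authors (Trimmomatic), cleared of rRNA and miRNA hairpins (Bowtie2) and mapped on Dm3 transcripts allowing 1 mismatch. Those of 23 to 29 nt were passed to eXpress for an estimate of abundance per sequence, which divides reads among similar sequences. The deposited values were scaled by miRNA hairpin reads, have no stated scale, and were treated as a score and not as read counts. RNA reads were mapped with STAR, allowing 100 alignments each, and the deposited table holds the counts that the authors made from them with TEtranscripts. The strand setting of that counting was not given in the sources used here. The class column of this table gives 1 label for every TE, so classes came from general knowledge. The number of unused columns was 0.

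The ratio log2((antisense + 1)/(sense + 1)) was formed within each library and tested against 0 with limma 3.58.1 in R 4.3.3, with Benjamini-Hochberg adjustment over all 123 sequences. The code was tested on simulated data. No filter was applied. CPM were TMM-normalized over genes and TEs with edgeR 4.0.16, and 0.1 CPM was added for ratios. Ratios needed a mean of 100 normalized counts and 10 transcript counts in every library. The value of 1 read was estimated from values up to 1000 with a tolerance of 1, within which 59.1%, 46.2% and 57.8% of low values were whole multiples, against 7.63%, 6.98% and 8.09% by chance. The authors describe the replicates as biological triplicates. Nothing in the labels says whether these are separate dissections, so p-values measure only the spread between these libraries.

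Sequences were named by fixed rules: the first 10 by total, the 5 most biased to each strand with a mean of at least 1000 normalized counts, the 5 with the most and the least antisense piRNA per transcript, the 5 highest in transcripts, and all members of the telomeric, dysgenesis, ribosomal DNA, Stellate and flamenco lists. Further lists are given by counts with examples. Members and lists were chosen with earlier results of these data known. Alternatives varied the pseudocount, filter, trend, threshold, scaling, pairing of strands, sequences included and libraries.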

Additional observations from a re-analysis of the deposited data

How the results depend on the processing

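The scaling of the strands and the fold limit moved the strand counts most. With each strand scaled to its own library total, which lowers every log2 ratio by about 0.93, 44 sequences were called antisense and 38 sense, and 64 of these 82 calls were among the 89 of the original scale. Among the sequences named by the fixed rules, HeT-A (log2 -0.87) and hobo (-0.82) turned to sense under this scaling. Of the same named sequences, the G element, G2, 297 and the I element were no longer called. Changes at other sequences are not listed here. With a limit of 4-fold, 36 and 11 were called. Antisense and sense of a library were kept together in the fit, and with no replicate block 70 and 22 were called, with no reported direction changed. Leaving out 1 library gave 67 to 70 antisense and 20 to 23 sense calls, a sense share of 33.95% to 34.57%, 60.6% to 63.5% in the first 10 and an inverse Simpson number of 16.6 to 18.6.

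The sense share was 40.3% without Su(Ste), 43.1% without the 4 Stellate, Su(Ste) and mst40 repeats, and 33.2% as the median over sequences. The share of the first 10 was 56.7% and 57.7% under the same exclusions, 66.7% for antisense and 67.6% for sense alone, and the inverse Simpson number was 23.5, 20.8, 11.7 and 10.9. The Spearman correlation with transcripts for both strands together, antisense and sense was 0.70, 0.66 and 0.69 with the filter on low values and 0.74, 0.70 and 0.72 without the 4 repeats. By class it was 0.71 (together) and 0.65 (sense) for LTR, 0.66, 0.55 and 0.67 for LINE, and 0.76, 0.79 and 0.74 for DNA elements. The split by the class column of the deposited table was not run, since that column holds a single label. The classes of general knowledge were chosen after seeing the data.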
